A study of Mus musculus with 16 samples.

Results

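The translation initiation factor genes, those whose symbols begin with Eif, were examined in the mouse hippocampus after inescapable shock. They were taken as all transcripts of the class protein_coding with such a gene name, which gave 230 transcripts of 50 genes. The whole set held 80137 transcripts, of which 56384 transcripts of 14785 genes were in the same class. This class describes the gene and not the transcript. By the GENCODE M21 annotation, in which all 230 were found, 127 of the Eif transcripts were protein-coding, 64 were retained introns, 26 were processed transcripts without an open reading frame and 13 were predicted targets of nonsense-mediated decay. There were 35 genes with more than 1 transcript and 15 with a single one, and Eif4a2 had the most, at 20. Eif1ax, Eif2s3x, Eif2s3y, Eif3j2 and Eif4e1b were not analysed here.

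RNA was measured in 16 male wild type C57BL/6 mice of 3 months, 4 in each group, and each library held the RNA of both hippocampi of 1 mouse. Homecage (HC) mice had neither shocks nor escape trials. Control (Ctrl) mice had 30 escape trials at 0.4 mA with no inescapable shocks before them. The other 8 mice, labelled non-learned helpless (NLH, 4 mice) and learned helpless (LH, 4 mice), had 180 inescapable shocks of 0.4 mA and then the 30 escape trials, and were told apart by how they escaped, so that the 2 groups differ in behavior and not in a treatment that was assigned. Per the study, an escape ended the shock of a trial, and LH mice failed to escape more often than NLH mice. Shock received in the trials and behavior therefore cannot be told apart in LH vs. NLH. All mice carry the same genotype, and HC and Ctrl mice together are called unshocked here, meaning without inescapable shocks. The values are FPKM, the fragments of a transcript per kilobase of its length, scaled to the size of the library, and a gene's level is the sum of the FPKM of its protein_coding rows. In bulk tissue, fewer cells of a type and less RNA per cell cannot be told apart.

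Some libraries stood apart. LH mice 3 and 4 had 10846 and 15504 transcripts at 0, against 4872 to 7352 in the other 14 mice, and among the Eif transcripts 24 and 30 against 6 to 17. The depth estimated from the steps of low FPKM values was lowest in LH mouse 4, at 20170000 fragments, and highest in Ctrl mouse 2, at 38080000. Median-ratio size factors, which show how far a mouse's values lie above or below the others, were 1.17 and 1.19 in LH mice 1 and 2 and 0.880 in LH mouse 4, and lay between 0.984 and 1.13 elsewhere. Counts over all Eif genes are therefore also given without LH mice 3 and 4 and after division by these factors. Values and the order of mice are as deposited unless the size factors are named. The 8 markers of hippocampal principal neurons were present in every mouse and summed to 334 to 543 FPKM, whereas 6 striatal markers summed to 7.53 to 18.3 FPKM. Summed choroid plexus markers ranged from 1.12 FPKM in LH mouse 4 to 78.4 FPKM in LH mouse 2, and those of oligodendrocytes from 265 to 515 FPKM. The part of other cells and regions in the results was not tested.

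Initiation is the step at which the ribosome finds the start of the message, and it is where translation is mostly controlled. The cap-binding protein eIF4E, the scaffold eIF4G and the helicase eIF4A form eIF4F on the mRNA cap, and eIF4E-binding proteins keep eIF4E away from the scaffold until the kinase mTOR phosphorylates them. The eIF2 complex brings the initiator tRNA, eIF2B recharges it with GTP, and stress kinases that phosphorylate its alpha subunit slow general initiation. eIF3 holds the small ribosomal subunit and the mRNA together, and eIF1, eIF1A, eIF5 and eIF5B act at the start codon and in subunit joining. In the hippocampus, both eIF4E and eIF2 control are known for their roles in lasting synaptic plasticity and memory.

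The Eif genes made up a small and steady part of the message pool. Their summed FPKM was 799.7 ± 35.1 in HC mice (SD, n = 4), 799.7 ± 20.95 in Ctrl mice, 877 ± 83.2 in NLH mice and 843 ± 133 in LH mice. In the single LH mice it was 936, 951, 824 and 662 FPKM, so that the LH group spanned the lowest value of all and one of the highest. As a share of all protein_coding FPKM the genes held 0.769% to 0.848% in every mouse. Levels of single genes spread over more than 3 orders of magnitude on this per-length scale, as the plot of group means shows. The helicase gene Eif4a2 was the highest, with a mean of 168 FPKM over the 16 mice, followed by Eif1 (97.8), the scaffold-like Eif4g2 (59.3), Eif4a1 (37.2) and Eif5a (36.3). The lowest were the cap-binding relative Eif4e3 (0.791) and the inhibitors Eif4ebp1 (0.322) and Eif4ebp3 (0.0471). How reads shared by close copies such as Eif4a1 and Eif4a2, or Eif1 and Eif1b, were divided is not given in the sources used here.

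**Figure D1:**
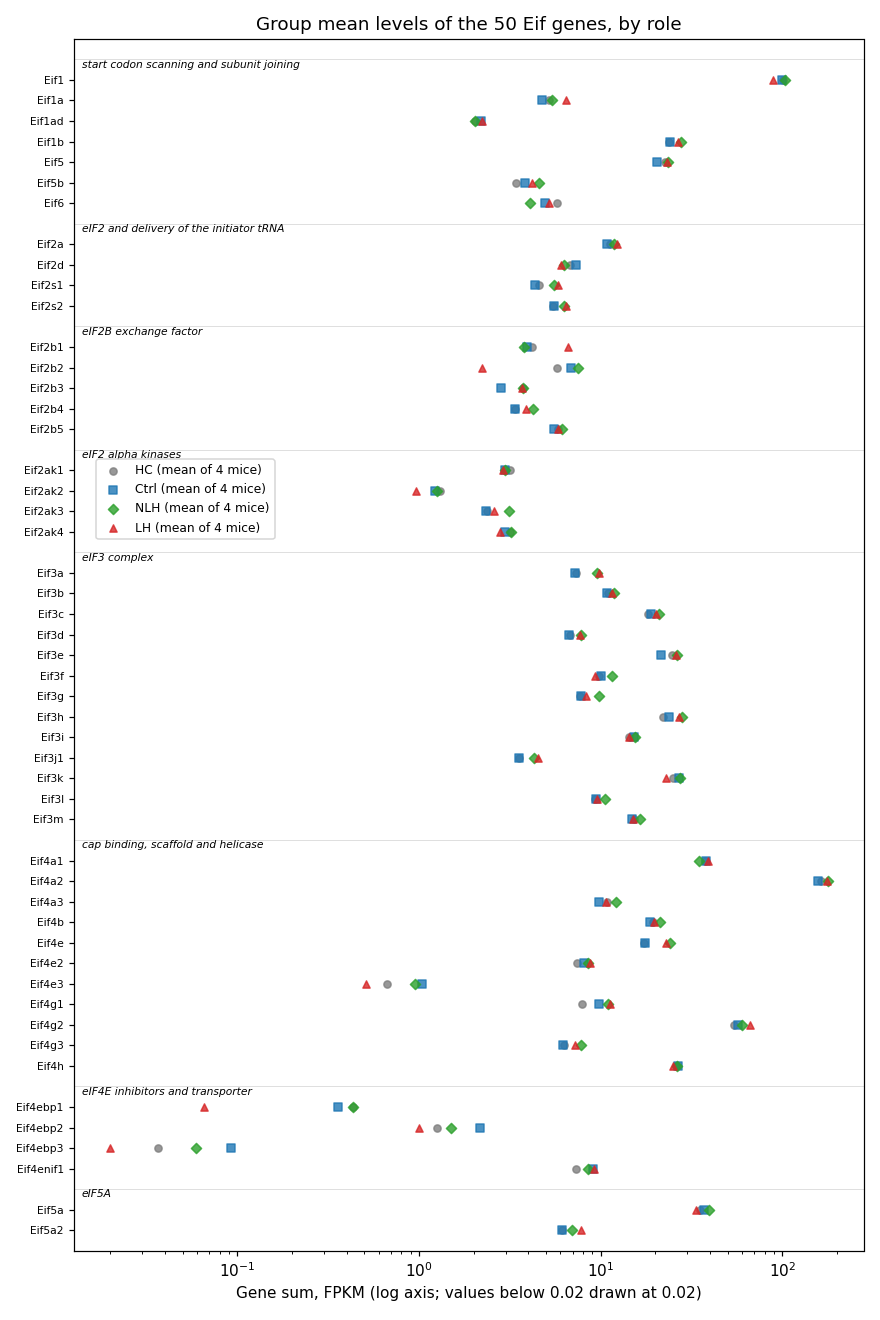
Mean gene sums in FPKM of the 50 Eif genes on a log axis, in rows by role, with 1 marker for the mean of 4 mice in each of the 4 groups. Eif4a2 lies highest at about 168 FPKM, and the markers of most genes nearly coincide, while the LH markers of Eif2b2, Eif2ak2, Eif4e3, Eif4ebp1, Eif4ebp2 and Eif4ebp3 lie to the left of the other groups. The LH mean of Eif4ebp3 is 0, which a log axis cannot show, and its marker stands at the lower limit named on the axis.

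No Eif gene passed limma's Benjamini-Hochberg adjusted threshold of 0.05 in any of the 4 comparisons of gene sums. In LH vs. Ctrl, 0.0541% of all 14785 genes passed it, in LH vs. NLH 0.00676%, and in Ctrl vs. HC and NLH vs. Ctrl 0%. The smallest adjusted p of an Eif gene was 1.00 in Ctrl vs. HC, 0.421 for Eif4e in NLH vs. Ctrl, 0.122 for Eif4ebp1 in LH vs. Ctrl, and 0.186 for the same gene in LH vs. NLH. The design is small, so the Eif genes that lay farthest from their spread are described below by their values and not as called genes. At limma's unadjusted threshold of 0.05, 2 of the 50 genes passed in Ctrl vs. HC, beside 2.64% of all genes. In NLH vs. Ctrl 7 passed, all of them higher in NLH mice, beside 5.96% of all genes in either direction and 4.99% higher. No Eif gene passed as lower there, where 0.967% of all genes did. In LH vs. Ctrl 11 passed, beside 11.8%. Of these, 7 were higher, beside 8.18% of all genes, and 4 lower, beside 3.58%. The last comparison, LH vs. NLH, had 6 past it, beside 7.03%, with 2 higher, beside 2.98%, and 4 lower, beside 4.05%. The study's own equal-variance test on the same sums, without adjustment, called 3 Eif genes in Ctrl vs. HC beside 9.36% of all genes, 6 in NLH vs. Ctrl beside 10.5%, 9 in LH vs. Ctrl beside 8.13% and 3 in LH vs. NLH beside 3.08%. Both NLH vs. Ctrl and LH vs. Ctrl use the same 4 Ctrl mice.

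Small differences went mostly upward in NLH mice. The median log2 difference, over the 49 Eif genes with a mean of at least 0.1 FPKM, was 0.15 in NLH vs. Ctrl, against 0.073 over all 13405 such genes, and 39 of the 50 Eif genes were higher in NLH mice, beside 64.9% of those 13405 genes. Beside this, summed oligodendrocyte markers were 384 ± 43.6 FPKM in Ctrl and 451 ± 46.4 FPKM in NLH mice (SD, n = 4), and those of principal neurons 474 ± 25.5 and 433 ± 34.3 FPKM, with overlap in both, and their part in the difference was not tested. In LH vs. Ctrl the medians were 0.085 and 0.014, with 31 of 50 higher, beside 52.0%. In LH vs. NLH they were -0.083 and -0.056, with 15 of 50 higher, beside 39.4%, and in Ctrl vs. HC -0.0025 and 0.029, with 25 of 50 higher, beside 57.3%. After division by the size factors, 36, 29, 17 and 19 genes were higher in these comparisons. The Eif medians were then 0.097, 0.052, -0.063 and -0.028 in the same order, against 0.023, -0.018, -0.039 and 0.0047 over all 13405 genes. The LH medians depended on single mice. In LH vs. Ctrl the median was 0.020, 0.0074, 0.094 and 0.19 without LH mouse 1, 2, 3 or 4 in turn, against -0.046, -0.064, 0.054 and 0.13 over all genes. In LH vs. NLH it was -0.11, -0.13, -0.052 and 0.021, against -0.12, -0.14, -0.018 and 0.058 over all genes. Without LH mice 3 and 4 together, 41 of 50 genes were higher in LH vs. Ctrl and 34 of 50 in LH vs. NLH, beside 81.4% and 76.6% of all 13405 genes. The LH vs. Ctrl median was then 0.27 against 0.24 over all genes. The LH vs. NLH median turned from -0.083 to 0.092, below the 0.16 over all genes. In LH vs. Ctrl 11 Eif genes passed the adjusted threshold, beside 8.1% of all genes. These were Eif1b, Eif2b1, Eif2s1, Eif3a, Eif3h, Eif3j1, Eif4a2, Eif4e, Eif4g2, Eif5 and Eif5a2, all of them higher in the remaining LH mice. With the size factors as well, 0 Eif genes passed, and 28 and 15 of 50 were higher, beside 58.8% and 55% of all 13405 genes. The medians were then 0.072 against Ctrl mice and -0.054 against NLH mice, where those over all genes were 0.050 and 0.025. With the size factors and without LH mouse 2 alone, 7 passed in LH vs. Ctrl, beside 4.11% of all genes.

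**Figure D2:**
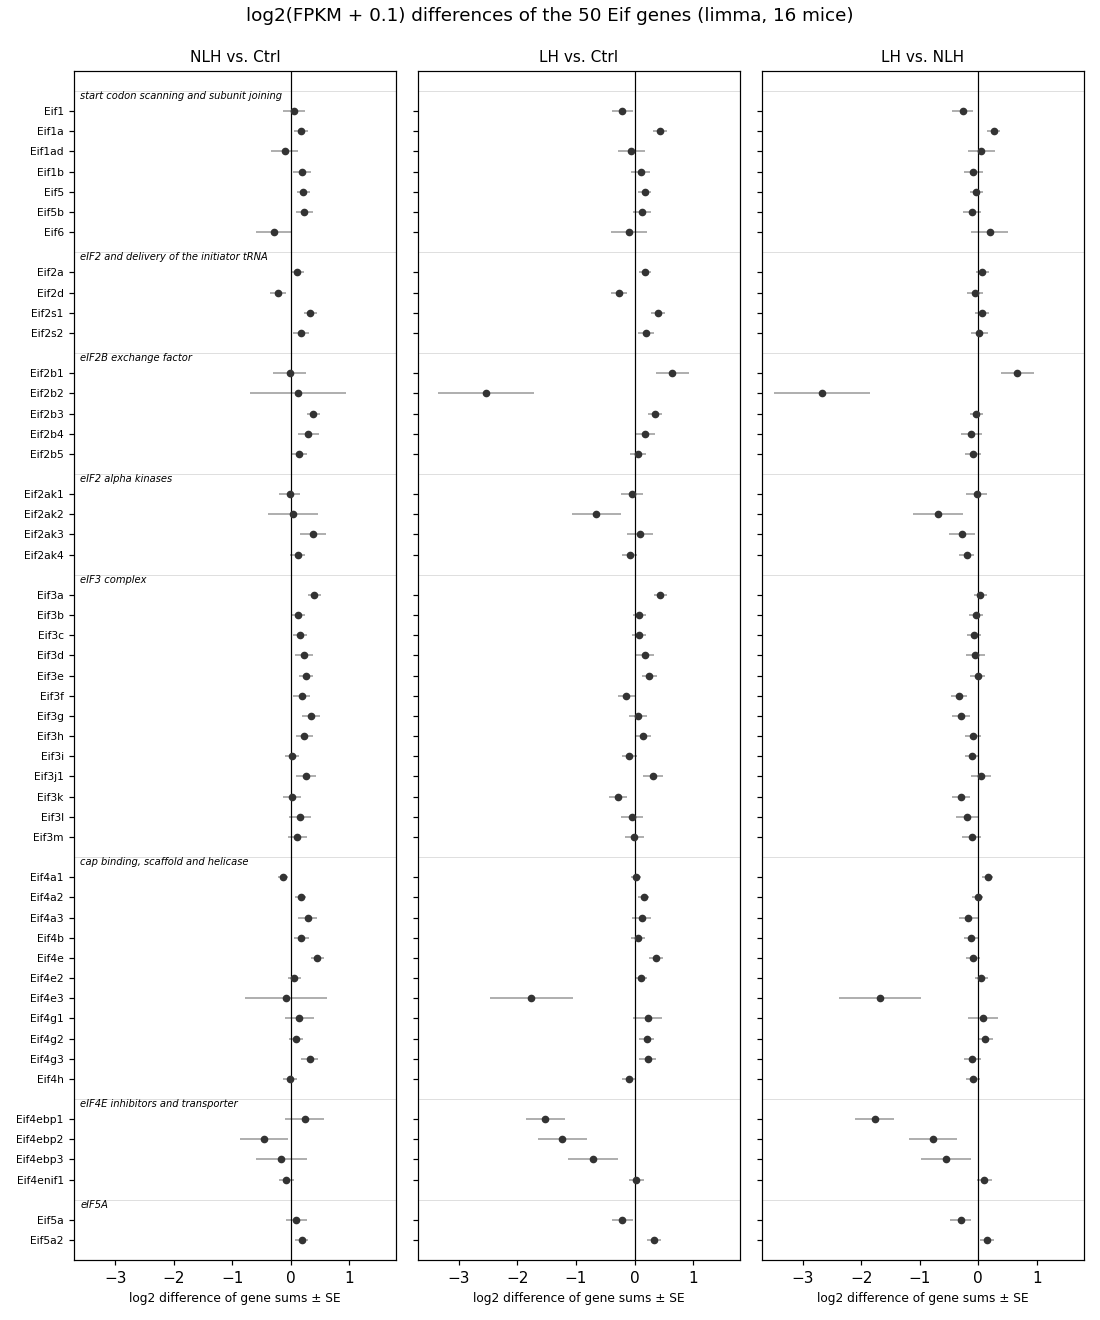
Log2 differences of the gene sums of the 50 Eif genes, in rows by role, in NLH vs. Ctrl, LH vs. Ctrl and LH vs. NLH. Points are limma's differences of log2(FPKM + 0.1) and bars their standard errors over 16 mice. Most points lie within 0.5 of 0, and Eif2b2, Eif4e3 and Eif4ebp1 lie farthest to the left in both LH panels.

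Among the cap-binding factors, Eif4e was higher after inescapable shock. Its gene sum was 15.8, 15.8, 18.3 and 19.1 FPKM in HC mice and 17.2, 17.4, 18.6 and 16.9 FPKM in Ctrl mice. In NLH mice it was 25.0, 25.7, 25.1 and 20.7 FPKM and in LH mice 26.4, 22.8, 24.4 and 18.1 FPKM. All NLH mice lay above all unshocked mice, and of the LH mice only mouse 4 overlapped them. The log2 difference was 0.45 ± 0.12 in NLH vs. Ctrl (SE) and 0.37 ± 0.12 in LH vs. Ctrl, with limma adjusted p of 0.421 and 0.219. The exact permutation p for NLH vs. Ctrl was 0.0286, the smallest that 4 mice against 4 can give. After division by the size factors all 8 shocked mice (19.0 FPKM or more) were above all 8 unshocked mice (18.6 FPKM or less), and the limma adjusted p became 0.144 and 0.0907. Without LH mouse 4 the adjusted p in LH vs. Ctrl was 0.0370, beside 1.68% of all genes called.

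In the deposited FPKM, the difference was assigned to 1 of the 5 Eif4e transcripts. The long form Eif4e-201, of 4991 bases, was 10.4, 10.4, 10.2 and 10.6 FPKM in Ctrl mice, 11.0, 8.87, 8.26 and 7.97 FPKM in NLH mice and 12.9, 11.1, 9.84 and 8.94 FPKM in LH mice. The short form Eif4e-202, of 856 bases, was 5.04, 6.75, 9.21 and 8.92 FPKM in HC mice and 6.83, 6.46, 8.35 and 6.28 FPKM in Ctrl mice. In NLH mice Eif4e-202 was 13.4, 15.8, 16.7 and 12.7 FPKM, above every unshocked mouse, and in LH mice 13.1, 11.6, 13.1 and 9.12 FPKM, above every Ctrl mouse. Its log2 difference was 1.06 ± 0.18 in NLH vs. Ctrl and 0.74 ± 0.18 in LH vs. Ctrl, against -0.21 ± 0.12 and 0.029 ± 0.12 for Eif4e-201. For Eif4e-202 the limma adjusted p over all 80137 transcripts was 0.109 and 0.165. As a share of the gene's FPKM, Eif4e-202 took 42.9% ± 7.94 in HC mice (SD, n = 4), 39.7% ± 3.70 in Ctrl mice, 60.8% ± 5.27 in NLH mice and 51.3% ± 1.82 in LH mice, with limma adjusted p of 0.259 in NLH vs. Ctrl and 0.379 in LH vs. Ctrl. The leading Eif4e transcript was Eif4e-201 in HC and Ctrl mice and Eif4e-202 in NLH and LH mice. The only exon of Eif4e-202 that does not overlap Eif4e-201 has 136 bases. How reads shared by these forms were divided is not given in the sources used here.

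**Figure D3:**
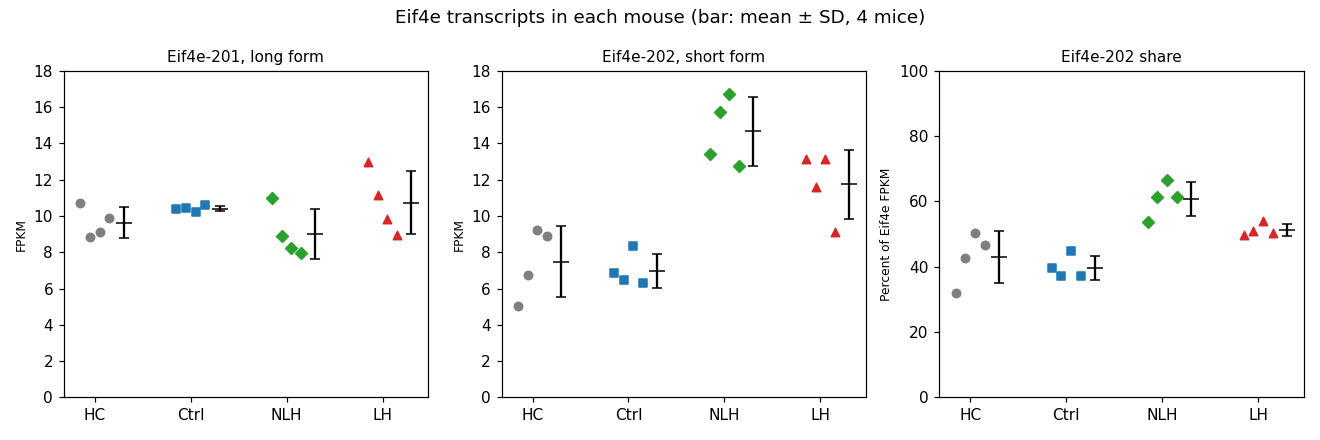
FPKM of the long transcript Eif4e-201 and the short transcript Eif4e-202, and the share of Eif4e-202 in the gene's FPKM in percent, in each of the 16 mice by group, with mean ± SD of 4 mice. The long form stays between 7.97 and 12.9 FPKM in all mice, while the short form is at 12.7 FPKM or more in the NLH mice and at 9.21 FPKM or less in the unshocked mice.

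The 2 forms differ at both ends. Eif4e lies on the plus strand of chr3, where Eif4e-201 runs over chr3:138526179-138559696 and Eif4e-202 over chr3:138527285-138555558 (mm10). Each has 8 exons, and both end their coding part at the same stop codon. Eif4e-202 leaves 54 bases after that codon and Eif4e-201 leaves 4192. Eif4e-201 codes from an ATG at position 138527297 and has 651 coding bases before the stop. Eif4e-202 holds the same ATG but then an exon of 136 bases at chr3:138533376-138533511 that Eif4e-201 lacks. Read from that ATG, Eif4e-201 has 217 codons before a stop and Eif4e-202 has 20. The annotation starts the coding part of Eif4e-202 at position 138550297, which leaves 396 coding bases. The 30 bases from the shared ATG are printed to show where the forms part, with the bases after their 18 shared bases in capitals.
Eif4e-201: atggcgactgtggaaccgGAAACCACCCCT
Eif4e-202: atggcgactgtggaaccgTGGGAGATTTTA

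RefSeq (GRCm38.p6) gives 2 start sites for Eif4e, and the first base of Eif4e-202 lies in the window of the second. Both windows are printed from 250 bases before to 50 after the start, because the short form begins in the second, with the E-box CACGTG in capitals. This E-box reads the same on both strands and is a known binding sequence of the Myc and Clock families. It was found 0 times in the first window, chr3:138525941-138526240, and 2 times in the second, chr3:138527018-138527317, which also holds the shared ATG.
Eif4e, first start: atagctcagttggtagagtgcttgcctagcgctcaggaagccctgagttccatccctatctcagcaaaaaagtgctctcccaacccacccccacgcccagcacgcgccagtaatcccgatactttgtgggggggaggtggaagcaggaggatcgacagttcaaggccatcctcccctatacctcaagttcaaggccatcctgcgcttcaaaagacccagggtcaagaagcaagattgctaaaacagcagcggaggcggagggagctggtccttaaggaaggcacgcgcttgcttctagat
Eif4e, second start: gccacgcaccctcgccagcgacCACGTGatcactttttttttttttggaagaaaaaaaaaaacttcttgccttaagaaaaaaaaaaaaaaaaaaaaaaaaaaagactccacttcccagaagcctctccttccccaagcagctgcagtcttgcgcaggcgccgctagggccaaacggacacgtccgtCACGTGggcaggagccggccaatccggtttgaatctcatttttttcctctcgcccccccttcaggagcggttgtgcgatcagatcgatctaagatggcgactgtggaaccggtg

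The E-box was in 7.15% of all 32851 RefSeq start windows of this length, and in 12 of the 53 windows of the 40 Eif genes found there. The CRE palindrome TGACGTCA was in 1.79% of all windows and TGATGNAA, a core of the sites that ATF4 binds, in 3.97% on either strand, and neither was in any Eif window. The E-box and the CRE share the letters ACGT, but neither contains the other, and a match is given as a description only.

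The other eIF4F genes differed less. The helicase gene Eif4a2 was 168, 161, 157 and 165 FPKM in HC mice, 154, 162, 155 and 157 FPKM in Ctrl mice, 181, 183, 194 and 150.3 FPKM in NLH mice and 189.6, 196, 169 and 150.0 FPKM in LH mice. The highest NLH and LH values lay above all unshocked ones and the lowest below them. After the size factors all LH mice (162 to 170.5 FPKM) were above all Ctrl mice (149 to 155 FPKM). Eif4a1, the gene of the other eIF4A helicase, was 36.6, 38.8, 34.2 and 40.5 FPKM in HC, 36.8, 37.7, 38.7 and 38.4 in Ctrl, 34.8, 34.1, 38.9 and 31.1 in NLH and 41.3, 37.0, 40.0 and 36.6 in LH mice, with a log2 difference of -0.13 ± 0.087 in NLH vs. Ctrl, where Eif4a2 had 0.17 ± 0.10. Eif4g2, which drives initiation without binding eIF4E, was 55.2, 56.1, 53.0 and 51.6 FPKM in HC, 50.7, 57.2, 59.0 and 60.1 in Ctrl, 60.2, 59.9, 66.3 and 54.4 in NLH and 77.5, 75.5, 63.8 and 48.7 in LH mice. Its LH values spread from the lowest to the highest of all mice, and the limma adjusted p was 0.552 in LH vs. Ctrl. After the size factors its LH values were 55.3 to 66.4 FPKM, and HC mouse 4 was lowest, at 50.1 FPKM. The cap-binding relative Eif4e2 had a log2 difference of 0.058 ± 0.11 in NLH vs. Ctrl and 0.11 ± 0.11 in LH vs. Ctrl, and the large scaffolds Eif4g1 and Eif4g3 had 0.14 ± 0.25 and 0.32 ± 0.14 in NLH vs. Ctrl. The helicase cofactors Eif4b and Eif4h had 0.18 ± 0.12 and -0.014 ± 0.12 in the same comparison. Eif4a3, a helicase of the exon junction complex and not of initiation, had 0.29 ± 0.16. Of the 11 genes for cap binding, scaffold and helicase, 8 were higher in NLH vs. Ctrl and 9 in LH vs. Ctrl, beside 64.9% and 52.0% of all genes with a mean of at least 0.1 FPKM. As higher, 2 and 1 passed the unadjusted threshold, beside 4.99% and 8.18% of all genes. In LH vs. Ctrl 1 gene passed it as lower in LH mice, beside 3.58%. That gene, the minor cap-binding gene Eif4e3, was 0.848, 0.602, 0.953 and 1.73 FPKM in Ctrl mice and 1.56 and 0.487 FPKM in LH mice 1 and 2, and was listed at or next to 0 in LH mice 3 and 4. Assembled transcripts without a gene name held most of the FPKM at the Eif4e3 locus, so that the named row shows only a part of it.

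The eIF4E-binding protein genes were expressed at low levels, and the sums of their named rows had their lowest group means in LH mice. Eif4ebp1 was 0.529, 0.667, 0.304 and 0.228 FPKM in HC mice, 0.197, 0.396, 0.408 and 0.432 FPKM in Ctrl mice and 0.356, 0.360, 0.469 and 0.551 FPKM in NLH mice. In LH mice it was 0.0723, 0.162, 0 and 0.0281 FPKM, below all other mice, also after the size factors. The log2 difference was -1.53 ± 0.33 against Ctrl mice and -1.77 ± 0.33 against NLH mice on the log2(FPKM + 0.1) scale, which understates changes of such low genes. Without LH mouse 2, which had the highest of the 4 LH values, the limma adjusted p in LH vs. Ctrl, 0.122, became 0.0391, beside 0.203% of all genes called, and no Eif gene passed there without LH mouse 1 or without LH mouse 3. Eif4ebp1 has a mean under 1 FPKM and was named because it had the smallest p of the Eif genes, after its values were seen. The leading Eif4ebp1 row in every group was a processed transcript without an open reading frame, at a mean of 0.251 FPKM over all mice. Most of the Eif4ebp1 sum is therefore not that of a coding form. Eif4ebp2, the form known as the main one of the brain, was 1.05, 1.12, 1.03 and 1.85 FPKM in HC, 1.19, 2.92, 2.09 and 2.47 in Ctrl, 1.39, 1.57, 1.08 and 1.98 in NLH and 0.721, 1.72, 0.240 and 1.31 in LH mice. Its Ctrl and LH mice overlapped, and the log2 difference was -1.23 ± 0.41 with a limma adjusted p of 0.251. In Ctrl vs. HC it was 0.71 ± 0.41, higher in Ctrl mice. Assembled transcripts without a gene name held 73.6% of the FPKM at the Eif4ebp2 locus, so that the named rows show only a part of it. With them the locus had a mean of 5.40 ± 2.19 FPKM in LH mice (SD, n = 4), above the 5.12 ± 0.332 FPKM of HC mice and below the 5.60 ± 0.584 and 6.37 ± 0.782 FPKM of NLH and Ctrl mice, and these means differed by less than the SD of the LH mice. Eif4enif1, which carries eIF4E into the nucleus, was 8.06, 7.11, 6.65 and 7.30 FPKM in HC and 8.30, 11.1, 8.43 and 8.42 FPKM in Ctrl mice, with no overlap, an exact permutation p of 0.0286 and a limma adjusted p of 1.00.

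In the eIF2 pathway, the alpha subunit gene was higher in shocked mice, and the groups overlapped for all 4 kinases that act on it. Eif2s1, which encodes the phosphorylated subunit, was 4.82, 4.72, 4.39 and 4.32 FPKM in HC and 4.26, 4.11, 4.60 and 4.43 FPKM in Ctrl mice. It was 5.87, 5.19, 6.21 and 4.84 FPKM in NLH and 6.63, 6.28, 5.44 and 4.89 FPKM in LH mice. The lowest shocked mouse (4.84 FPKM) was just above the highest unshocked one (4.82 FPKM), and this order held after the size factors. The log2 difference was 0.33 ± 0.12 in NLH vs. Ctrl and 0.40 ± 0.12 in LH vs. Ctrl, with limma adjusted p of 0.639 and 0.192, and without LH mouse 4 the latter was 0.0418. Eif2s2, the beta subunit, was 5.36 to 5.86 FPKM in Ctrl mice, 5.52 to 7.10 FPKM in NLH mice and 4.59 to 7.40 FPKM in LH mice, with overlap throughout. The noncanonical tRNA carriers Eif2a and Eif2d had log2 differences of 0.18 ± 0.11 and -0.27 ± 0.14 in LH vs. Ctrl.

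The 4 kinase genes were at similar, low levels. Eif2ak1, the heme-regulated kinase, was 2.60, 3.80, 3.13 and 3.22 FPKM in HC, 3.19, 3.37, 2.33 and 3.07 in Ctrl, 2.14, 2.99, 3.44 and 3.28 in NLH and 3.09, 3.29, 2.11 and 3.14 in LH mice. Eif2ak2, the kinase PKR that senses double-stranded RNA, was 1.26, 1.08, 1.67 and 1.24 FPKM in HC, 0.939, 1.35, 1.51 and 1.11 in Ctrl, 1.03, 1.40, 1.46 and 1.12 in NLH and 1.03, 1.97, 0.676 and 0.167 in LH mice. Its 2 lowest values were those of LH mice 3 and 4. Eif2ak3, the endoplasmic reticulum kinase PERK, was 2.41, 2.33, 2.71 and 2.03 FPKM in HC, 1.97, 2.05, 2.48 and 2.85 in Ctrl, 3.13, 4.24, 2.93 and 2.16 in NLH and 2.95, 3.41, 2.33 and 1.60 in LH mice. Eif2ak4, the amino acid sensor GCN2, was 2.91, 2.95, 3.21 and 3.65 FPKM in HC, 2.54, 3.48, 3.05 and 2.85 in Ctrl, 2.75, 3.24, 3.63 and 3.29 in NLH and 2.87, 2.82, 2.77 and 2.71 in LH mice. Groups overlapped for each kinase in all 4 comparisons, and 0 of the 4 passed even the unadjusted threshold. The largest difference was that of Eif2ak2 in LH vs. NLH, -0.68 ± 0.42, with a limma adjusted p of 0.776. At the Eif2ak1 locus 69.3% of the FPKM was in a transcript without a gene name.

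The eIF2B subunits did not move as one. Eif2b3, the gamma subunit of the exchange factor, was 2.82, 2.86, 2.75 and 2.94 FPKM in Ctrl mice, below every other mouse as deposited. It was 3.62, 3.91, 3.61 and 3.82 FPKM in HC, 3.60, 3.71, 3.58 and 4.06 in NLH and 3.07, 3.52, 4.21 and 3.87 in LH mice. After the size factors LH mouse 1 (2.63 FPKM) was below all Ctrl mice, the lowest of which was at 2.66 FPKM. The log2 difference was -0.38 ± 0.11 in Ctrl vs. HC and 0.38 ± 0.11 in NLH vs. Ctrl, with limma adjusted p of 1.00 and 0.509. Eif2b1, the alpha subunit, was 3.69, 5.53, 2.98 and 3.61 FPKM in Ctrl, 3.90, 3.55, 3.83 and 3.91 in NLH and 8.21, 6.07, 3.00 and 9.18 in LH mice, so that 3 of the 4 LH mice were above all Ctrl and NLH mice, and 2 of the 4 were after the size factors. Eif2b2, the beta subunit, varied widely, with 3.87, 7.26, 2.69 and 9.08 FPKM in HC, 10.2, 4.22, 3.89 and 9.00 in Ctrl, 3.17, 10.8, 8.78 and 7.15 in NLH and 4.89, 3.64, 0.130 and 0.230 in LH mice. LH mice 3 and 4 were far below all others, and the log2 difference in LH vs. NLH was -2.67 ± 0.82 with a limma adjusted p of 0.481. Transcripts without a gene name at this locus went the other way, at 1.60 to 2.97 FPKM in LH and 0.214 to 1.47 FPKM in NLH mice. With them the locus held 4.31 ± 2.23 FPKM in LH and 8.18 ± 2.81 FPKM in NLH mice (SD, n = 4). The leading Eif2b2 row was a retained intron in HC, Ctrl and NLH mice and a protein-coding form in LH mice. Over all mice these rows had means of 2.93 and 2.40 FPKM. In LH vs. NLH the study's equal-variance test gave unadjusted p of 0.0314 for the retained intron and 0.148 for the coding form. Eif2b5, the catalytic epsilon subunit, was 5.64, 5.81, 5.75 and 6.07 FPKM in HC, 4.96, 5.78, 5.71 and 5.57 in Ctrl, 5.65, 6.74, 7.06 and 5.11 in NLH and 6.53, 6.80, 5.46 and 4.43 in LH mice, and the groups overlapped in all 4 comparisons. Eif2b4, the delta subunit, had a log2 difference of 0.30 ± 0.17 in NLH vs. Ctrl and 0.18 ± 0.17 in LH vs. Ctrl. Of the 5 subunits, 4 were higher in each of these comparisons, beside 64.9% and 52.0% of all genes with a mean of at least 0.1 FPKM.

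**Figure D4:**
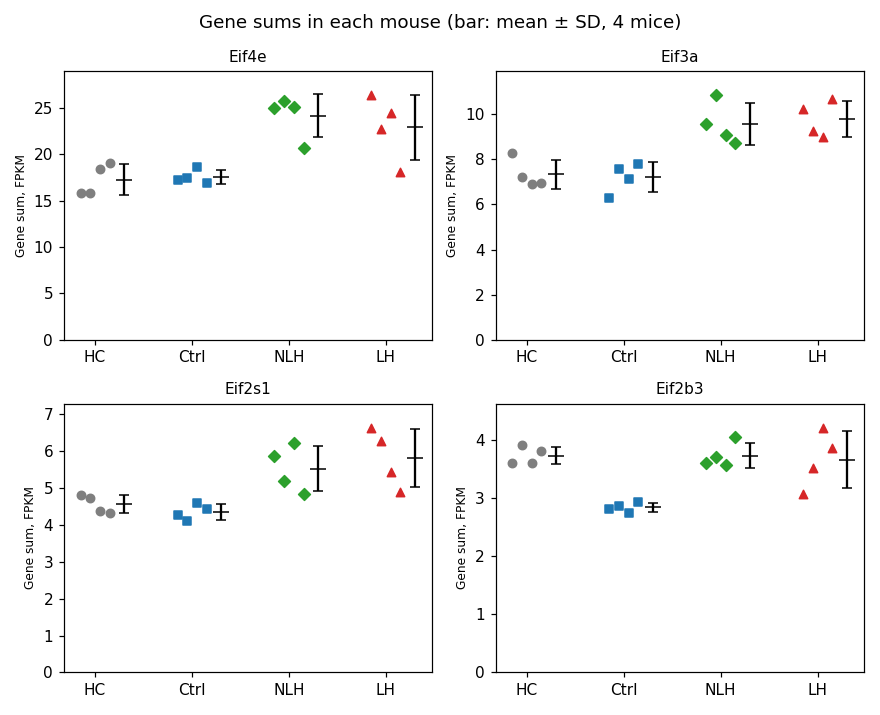
Gene sums in FPKM of Eif4e, Eif3a, Eif2s1 and Eif2b3 in each of the 16 mice by group, with mean ± SD of 4 mice. The NLH and LH mice lie above the HC and Ctrl mice for Eif3a and, narrowly, for Eif2s1, LH mouse 4 overlaps the unshocked mice for Eif4e, and the Ctrl mice lie lowest for Eif2b3.

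All 13 eIF3 genes were higher in NLH than in Ctrl mice, and 11 of them were after the size factors. Of all genes with a mean of at least 0.1 FPKM, 64.9% were higher there as deposited. Of the 13, 3 passed the unadjusted threshold, beside 4.99% of all genes that passed it as higher, and the median log2 difference was 0.18. In LH vs. Ctrl 8 of the 13 were higher, beside 52.0% of the genes with a mean of at least 0.1 FPKM. The median there was 0.071, and 1 passed the unadjusted threshold as higher, beside 8.18% of all genes. In LH vs. NLH 11 were lower and 2 higher, where 39.4% of the genes with such a mean were higher. Without LH mice 3 and 4 all 13 were higher against Ctrl mice and 11 against NLH mice, beside 81.4% and 76.6% of all 13405 genes, and with the size factors as well 9 and 3 were, beside 58.8% and 55%. Eif3a, the largest subunit and the scaffold of the complex, showed the clearest pattern. It was 8.29, 7.21, 6.93 and 6.95 FPKM in HC and 6.29, 7.58, 7.14 and 7.82 FPKM in Ctrl mice, and 9.56, 10.8, 9.06 and 8.73 FPKM in NLH and 10.2, 9.28, 8.99 and 10.7 FPKM in LH mice. All 8 shocked mice were above all 8 unshocked ones. The log2 difference was 0.40 ± 0.11 in NLH vs. Ctrl and 0.44 ± 0.11 in LH vs. Ctrl, with limma adjusted p of 0.437 and 0.130, and 0.038 ± 0.11 in LH vs. NLH. Divided by the size factors, LH mouse 2 (7.77 FPKM) and NLH mouse 3 (8.02 FPKM) fell within the unshocked mice, whose highest was 8.11 FPKM. Eif3a lies on chr19:60761117-60790658 and Eif2s1 on chr12:78861819-78887010 (mm10). Eif3g, an RNA-binding subunit, was 9.43 to 10.3 FPKM in NLH and 6.93 to 9.36 FPKM in Ctrl mice, without overlap as deposited. After the size factors NLH mouse 3 (8.89 FPKM) was below Ctrl mouse 2 (8.98 FPKM). For the 9 eIF3 genes not named here otherwise, the log2 difference in NLH vs. Ctrl ranged from 0.026 for Eif3i to 0.26 for Eif3e. Eif3k and Eif3f, other subunits of the complex, averaged less in the LH mice than in NLH mice, with log2 differences of -0.29 ± 0.15 and -0.33 ± 0.14, with limma adjusted p of 0.734 and 0.678. For both genes LH mice 1 and 2 lay within the NLH range as deposited (24.0 to 30.8 FPKM for Eif3k, 10.3 to 12.8 for Eif3f), and LH mice 3 and 4, at 20.1 and 16.1 FPKM and at 8.57 and 6.70 FPKM, lay below it. After the size factors all LH mice, the highest at 9.33 FPKM, were below all NLH mice, the lowest at 10.1 FPKM, for Eif3f, with a limma adjusted p of 0.285. For Eif3k LH mouse 1 (23.0 FPKM) was then also below the NLH range, which began at 23.2 FPKM, and LH mouse 2 (23.5 FPKM) was not.

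Eif3a and Eif2s1 were the 2 of 50 Eif genes whose shocked and unshocked mice did not overlap. Of all 14785 genes, 0.426% were higher in this way, and after the size factors 0.501%, when the Eif genes were Eif2s1 and Eif4e. In the single comparisons, 4 Eif genes did not overlap in Ctrl vs. HC, beside 5.84% of all genes, and 6 in NLH vs. Ctrl, beside 6.73%. There were 7 in LH vs. Ctrl, beside 5.99%, and 2 in LH vs. NLH, beside 1.97%. The RefSeq start windows of Eif3a (minus strand, chr19:60790644-60790943) and Eif2s1 (plus strand, chr12:78861822-78862121) are printed beside those of Eif4e because these 3 are the Eif genes whose shocked and unshocked mice did not overlap, as deposited or after the size factors. The E-box, in capitals, occurs once in Eif3a, 22 bases after the start, and is not in Eif2s1.
Eif3a: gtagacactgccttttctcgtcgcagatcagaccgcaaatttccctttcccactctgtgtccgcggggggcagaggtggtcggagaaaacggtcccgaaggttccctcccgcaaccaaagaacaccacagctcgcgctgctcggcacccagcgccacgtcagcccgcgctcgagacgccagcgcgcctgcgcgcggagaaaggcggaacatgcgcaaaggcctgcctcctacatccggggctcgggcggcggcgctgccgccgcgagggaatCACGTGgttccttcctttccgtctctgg
Eif2s1: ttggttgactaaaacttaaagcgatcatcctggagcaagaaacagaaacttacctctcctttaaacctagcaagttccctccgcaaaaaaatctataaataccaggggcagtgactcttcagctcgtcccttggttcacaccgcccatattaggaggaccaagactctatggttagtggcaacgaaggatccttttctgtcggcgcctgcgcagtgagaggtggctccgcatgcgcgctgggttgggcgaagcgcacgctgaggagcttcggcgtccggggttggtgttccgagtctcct

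Among the start codon factors, Eif1a, which helps the ribosome scan, had its highest group mean in LH mice. It was 5.17, 5.55, 4.76 and 5.38 FPKM in HC, 4.54, 4.67, 4.47 and 5.35 in Ctrl and 5.56, 5.63, 6.10 and 4.34 in NLH mice. The LH values, 6.52, 6.28, 6.84 and 6.22 FPKM, were above those of every other mouse as deposited. After division by the size factors LH mouse 2 (5.25 FPKM) lay below HC mouse 2 (5.51) and NLH mice 1 and 3 (5.39 and 5.40). The log2 difference was 0.44 ± 0.11 against Ctrl mice and 0.26 ± 0.11 against NLH mice, with limma adjusted p of 0.147 and 0.678. The gene is divided between 2 transcripts. In Ctrl mice the shorter Eif1a-202 held 22.4, 33.6, 31.7 and 30.5% of the gene's FPKM, against 38.0, 43.5, 37.6 and 53.4% in HC and 38.2, 35.0, 45.7 and 45.2% in NLH mice. For this share the limma adjusted p was 1.00 in Ctrl vs. HC and 0.937 in NLH vs. Ctrl. Eif5, the GTPase-activating factor, had nearly all its FPKM in Eif5-202 except in NLH mice. The share of Eif5-202 was 100, 86.7, 83.2 and 88.0% in NLH mice and 98.8% or more in the other 12. NLH mouse 1 was like the other groups, and the limma adjusted p was 0.676 in NLH vs. Ctrl and 0.299 in LH vs. NLH. Without that mouse, which is the 1 NLH mouse lacking the pattern, these became 0.0131 and 0.00734, so that the call rests on leaving it out. In that fit 30 and 74 of all 44142 shares passed.

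The other genes of this role had small or scattered differences. In NLH vs. Ctrl the log2 difference was 0.23 ± 0.15 for Eif5b, the subunit-joining GTPase, 0.19 ± 0.16 for Eif1b, -0.11 ± 0.23 for Eif1ad and -0.28 ± 0.31 for Eif6, which keeps the large subunit apart. Of the 7 genes with a row, 5 were higher in NLH vs. Ctrl and 4 in LH vs. Ctrl, beside 64.9% and 52.0% of all 13405 genes. Without LH mice 3 and 4 all 7 were higher in LH vs. Ctrl, beside 81.4% of all 13405 genes, or 5 with the size factors as well, beside 58.8%.

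Eif5a, which relieves stalled ribosomes and needs hypusine, was 36.2, 34.0, 32.1 and 38.9 FPKM in HC, 32.6, 38.0, 40.0 and 37.4 in Ctrl, 37.0, 41.4, 42.1 and 37.5 in NLH and 44.5, 39.3, 30.0 and 20.0 in LH mice. LH mouse 4 was lowest, also after the size factors, and LH mouse 1 highest, whereas after them Ctrl mouse 3 (38.7 FPKM) was above it (38.2 FPKM). Its relative Eif5a2 was 5.57 to 6.61 FPKM in Ctrl and 6.52 to 9.08 FPKM in LH mice, a log2 difference of 0.34 ± 0.12 with a limma adjusted p of 0.262. The groups overlapped as deposited and not after the size factors, when Ctrl mice were at 5.52 to 6.37 FPKM and LH mice at 6.94 to 7.78 FPKM, with a limma adjusted p of 0.103.

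Isoform shares were tested for 213 Eif transcripts, and 0 passed limma's adjusted threshold in any comparison, where 0%, 0.0159%, 0.0272% and 0.0362% of all shares did, in the order Ctrl vs. HC, NLH vs. Ctrl, LH vs. Ctrl and LH vs. NLH. At the unadjusted threshold 8 passed in Ctrl vs. HC, beside 3.6% of the 44142 transcripts tested, and 19 in NLH vs. Ctrl, beside 5.07%. In LH vs. Ctrl 22 passed, beside 10.9%, and in LH vs. NLH 17, beside 9.37%, and in these last 2 comparisons the share of Eif transcripts called was not above that of all transcripts. The shares of a gene sum to its whole and are not independent, so these are not counts of separate changes. The leading transcript was the same in all 4 groups for 30 of the 35 genes with several transcripts. It changed for Eif2a, Eif2b2, Eif2b4, Eif4e and Eif5b.

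The processed transcripts had their lowest mean share of the Eif FPKM in LH mice, with overlap, and the most abundant of them was Eif1-202. Together the 26 held 7.88 ± 1.19% in HC mice (SD, n = 4), 7.70 ± 1.35% in Ctrl, 6.18 ± 0.771% in NLH and 4.50 ± 1.53% in LH mice. LH mouse 3, at 6.65%, was above Ctrl mice 2 and 4, at 6.63% and 6.60%. This transcript, of 383 bases, comes from the gene of the factor that guards start codon choice, and Eif1-202 was 47.7, 56.1, 34.6 and 54.4 FPKM in HC and 57.5, 37.8, 53.5 and 39.7 FPKM in Ctrl mice. It was 43.6, 54.3, 35.9 and 32.4 FPKM in NLH and 23.7, 31.0, 39.7 and 5.76 FPKM in LH mice. Its share of Eif1 was 24.2, 29.0, 39.8 and 11.3% in LH mice, all below the lowest Ctrl mouse at 41.9%, with a limma adjusted p of 0.225. The coding form Eif1-201 took 73.7, 68.8, 56.2 and 84.2% in LH mice and 42.8, 55.9, 47.6 and 54.8% in Ctrl mice, and the gene sum had a log2 difference of -0.21 ± 0.18.

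Transcripts predicted to undergo nonsense-mediated decay took 1.64 ± 0.208% of the Eif FPKM in HC mice, 1.42 ± 0.261% in Ctrl, 1.31 ± 0.206% in NLH and 2.38 ± 0.833% in LH mice. LH mice 3 and 4, at 2.76% and 3.36%, were above all other mice, and LH mice 1 and 2, at 1.81% and 1.58%, lay within the HC range of 1.49 to 1.94%. Eif4a1-201, of 813 bases, was 2.36, 3.25, 1.15 and 2.26 FPKM in Ctrl, 2.31, 1.90, 1.55 and 2.37 in NLH and 3.96, 3.90, 5.60 and 8.22 in LH mice, and all LH mice were above all others. It held 9.59, 10.5, 14.0 and 22.4% of Eif4a1 in LH mice, most in mice 4 and 3, against 2.96% to 8.63% elsewhere. The limma adjusted p of the share was 0.295 against Ctrl mice and 0.386 against NLH mice. Eif2a-202, a form of the same class, was 0.245, 2.08, 0.000280 and 0.265 FPKM in HC and 1.91, 1.65, 0.753 and 1.76 FPKM in Ctrl mice, and the groups overlapped. Its share of Eif2a had a limma adjusted p of 1.00. The main form of Eif3f, Eif3f-201, held 100, 100, 96.8 and 100% of its gene in LH mice and 93.1, 95.6, 93.9 and 92.9% in NLH mice, with a limma adjusted p of 0.211 for LH vs. NLH.

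**Figure D5:**
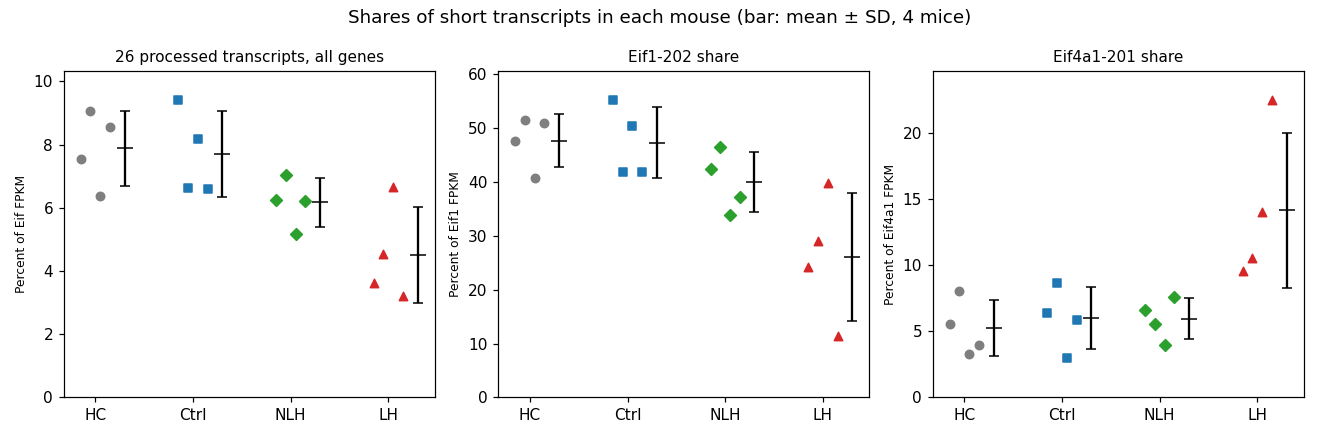
Share of the 26 processed transcripts in the summed Eif FPKM, share of Eif1-202 in Eif1 and share of Eif4a1-201 in Eif4a1, all in percent, in each of the 16 mice by group with mean ± SD of 4 mice. The LH mice lie lowest on average in the first 2 panels, with LH mouse 4 at 11.3% for Eif1-202, and highest for Eif4a1-201, with LH mouse 4 at 22.4%.

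The study's own rule called transcripts by an equal-variance test on FPKM at an unadjusted p under 0.05. By this rule 13 of 229 Eif transcripts that could be tested were called in Ctrl vs. HC, beside 6.68% of all transcripts, and 24 of 230 in NLH vs. Ctrl, beside 7.2%. In LH vs. Ctrl 22 of 229 were called, beside 7.69%, and in LH vs. NLH 11 of 228, beside 4.47%. Together these were 49 transcripts of 32 genes. The study set aside transcripts already called in Ctrl vs. HC or NLH vs. Ctrl, which removed 34 Eif transcripts and left 12 of 195 called in LH vs. Ctrl, beside 6.15%, and 8 of 194 in LH vs. NLH, beside 3.95%. After Benjamini-Hochberg adjustment 0 Eif transcripts passed in any comparison, by this test or by limma. Of all transcripts, limma's adjusted test called 0.00374% in Ctrl vs. HC and 0.0125% in NLH vs. Ctrl. For LH mice it called 0.0462% against Ctrl mice and 0.0412% against NLH mice.

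Other genes of the same pathways were read from lists of general knowledge. Of the 14 measured genes of the integrated stress response, which follows eIF2 phosphorylation, 0 passed the unadjusted threshold in Ctrl vs. HC and NLH vs. Ctrl. Against Ctrl mice, 1 was higher in LH mice, beside 8.18% of all genes, and 2 were lower when LH mice were set against NLH mice, beside 4.05%. Its central transcription factor Atf4 was 17.2 to 19.6 FPKM in Ctrl, 17.8 to 19.0 in NLH and 16.1 to 23.1 in LH mice. Ppp1r15a, the phosphatase subunit that reverses eIF2 phosphorylation, was 0.876 to 0.940 FPKM in Ctrl, 1.02 to 1.32 in NLH and 0.915 to 1.38 in LH mice. Ddit3, the stress factor CHOP, averaged less in LH mice than it did in NLH mice, with a log2 difference of -0.56 ± 0.18, with a limma adjusted p of 0.500, and its lowest values were in LH mice 3 and 4.

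Among 20 measured genes of mTOR and eIF4F control, 3 were higher at the unadjusted threshold in NLH vs. Ctrl, beside 4.99% of all genes. Between LH and Ctrl mice 5 were higher and 1 lower, beside 8.18% and 3.58%. In LH vs. NLH 1 was lower, beside 4.05%, and in Ctrl vs. HC 1 was higher and 1 lower, beside 1.66% and 0.974%. In both comparisons of shocked with Ctrl mice the smallest p were those of 2 partners of the poly(A)-binding protein, the inhibitor Paip2 and the activator Paip1. Paip2 was 13.2, 11.9, 12.2 and 13.3 FPKM in HC mice and 14.6, 16.9, 14.8 and 14.6 FPKM in Ctrl mice. In shocked mice it was 19.8, 24.2, 18.3 and 20.3 in NLH and 25.7, 20.8, 19.9 and 22.3 in LH mice, with log2 differences of 0.43 ± 0.11 and 0.53 ± 0.11. Paip1 had 0.37 ± 0.12 and 0.53 ± 0.12. These were also the 2 genes past the unadjusted threshold in Ctrl vs. HC, where Paip2 was higher in Ctrl mice (0.27 ± 0.11) and Paip1 lower (-0.25 ± 0.12). The S6 kinase gene Rps6kb2 had a log2 difference of -0.54 ± 0.18 in LH vs. NLH. Limma adjusted p were 0.112 for Paip2 and 0.122 for Paip1 in LH vs. Ctrl and 0.514 for Rps6kb2. Of 13 genes of elongation, termination and recycling, 3 were higher in NLH vs. Ctrl, beside 4.99% of all genes, and 2 in LH vs. Ctrl, beside 8.18%, among them the elongation factor subunit Eef1g (0.41 ± 0.11 and 0.42 ± 0.11) and the recycling factor Denr (0.48 ± 0.14 and 0.38 ± 0.14). Of the mitochondrial initiation factors, Mtif2 had 0.51 ± 0.17 and Mtif3 0.89 ± 0.40 in LH vs. Ctrl, and the highest Mtif3 value, 11.3 FPKM, was in LH mouse 4. None of the listed genes passed limma's adjusted threshold in any of the 4 comparisons.

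Some of the loci held transcripts that carry no gene name. There were 93 of these at 34 Eif loci, and they held more than 50% of the FPKM at the loci of Eif2ak1, Eif4e3, Eif4ebp2, Eif4ebp3, Eif4g1 and Eif4g3. For Eif4e3 (90.8%) and Eif4ebp3 (98.8%) the locus is shared with Foxp1 and Ankhd1, so that the unnamed transcripts may belong to either gene. The Eif4e and Eif2s1 loci held none, and at the Eif3a locus 1 such transcript held 28.4%.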

How the data were processed

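Hippocampal total RNA of 16 mice was sequenced as 2 reads of 150 bases. Per the methods, the authors aligned reads with HISAT2 to mm10, merged transcripts with StringTie 1.2.3 and computed FPKM with Cufflinks, and deposited FPKM per transcript. The submitters' processing notes list STAR 2.42a instead, and which aligner made the values cannot be settled here. The files hold no counts. Depth was read from the spacing of low FPKM values of long transcripts, with a fragment length of 200 bases taken as given, and 66.5% to 84.3% of the values tested lay within 0.1 of a whole number, so that no count test was run.

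From the deposited FPKM, gene sums were taken over the protein_coding rows of each gene name. They were fitted as log2(FPKM + 0.1) with limma 3.58.1 (R 4.3.3, trend and robust moderation, 4 group means, 16 mice), with Benjamini-Hochberg adjustment over 14785 genes. Fold changes on this scale understate those of low genes. Isoform shares were fitted as arcsine square roots over 44142 transcripts of genes with at least 2 transcripts, a mean of at least 1 FPKM and a sum above 0 in each mouse. The study's equal-variance test on FPKM, two-sided at 0.05 without adjustment, was run on every transcript. Single values were compared by an exact two-sided permutation test, in which 4 mice against 4 cannot give a p under 0.0286. Scripts were tested on simulated data.

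Values per mouse are given for the eIF2 kinases, Eif2s1, Eif2b5, Eif4e, Eif4ebp2, Eif4g2, Eif4a1, Eif4a2 and Eif5a, and for the 3 gene sums and 3 shares with a mean of at least 1 FPKM and the smallest p in each comparison. From each pathway list, genes among the 2 with the smallest p in a comparison were named. The members, lists and rules were chosen with earlier results of these data known. Alternatives were other scalings, pseudocounts, filters and samples. Transcript classes and positions come from GENCODE M21, and start windows from RefSeq (GRCm38.p6), which held 40 of the 50 genes.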

Additional observations from a re-analysis of the deposited data

Results flagged for a closer look

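In 116 groups of 4 mice, made of 29 Eif gene sums and transcripts in 4 groups each, 5 single mice lay far from the other 3 of their group by Dixon's criterion, where chance gives about 5%. The Eif4e sum was 20.7 FPKM in NLH mouse 4 and 25.0 to 25.7 FPKM in the other NLH mice. The Eif4ebp2 sum was 1.85 FPKM in HC mouse 4 and 1.03 to 1.12 FPKM in the other HC mice. The Eif4enif1 sum was 11.1 FPKM in Ctrl mouse 2 and 8.30 to 8.43 FPKM in the other Ctrl mice. Of the transcripts, Eif1a-201 was 2.92 FPKM in LH mouse 4 and 4.15 to 4.38 FPKM in the other LH mice, and Eif2a-202 was 2.08 FPKM in HC mouse 2 and 0.265 FPKM or less in the other HC mice.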

How the results depend on the processing

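Among 38 differences of single genes and shares, 892 recomputed values held 0 reversals of direction and 884 on the same side of the threshold, and the other 8 came to pass it, each after mice were left out. The 38 had been picked for their small p in these same data, so that reversals were unlikely from the start. Without LH mice 3 and 4, a choice made after seeing the data, 11 gene sums passed in LH vs. Ctrl, beside 8.1% of all genes. The medians were then 0.27 against Ctrl mice and 0.092 against NLH mice, beside 0.24 and 0.16 over all genes. When 1 mouse was left out of the values as deposited, gene sums past limma's adjusted threshold numbered 0 to 2 in LH vs. Ctrl and 0 to 0 elsewhere, and shares 0 to 2 in both comparisons with NLH mice and 0 to 0 elsewhere. The 2 shares were those of both Eif5 transcripts without NLH mouse 1, which mirror each other and are not independent. In that fit 30 of all shares passed in NLH vs. Ctrl and 74 in LH vs. NLH. With 1 mouse left out of the values as deposited, medians over the gene sums ranged from -0.022 to 0.032 in Ctrl vs. HC, 0.098 to 0.20 in NLH vs. Ctrl, 0.0074 to 0.19 in LH vs. Ctrl, and -0.13 to 0.021 in LH vs. NLH. Transcripts called by the study's test ranged from 9 to 18, 13 to 29, 15 to 30 and 9 to 11 in the same order, the 13 without NLH mouse 2. With the size factors, gene sums past the threshold numbered 7 in LH vs. Ctrl without LH mouse 2 and 2 without NLH mouse 1, beside 4.11% and 1.02% of all genes, and 1 in LH vs. NLH without each of these mice in turn, beside 0.115% and 0.744%.

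The study's test called 0 Eif transcripts in each comparison after Benjamini-Hochberg adjustment, as did limma adjusted (0). It called 3 of 85 in LH vs. NLH among transcripts with a mean of at least 1 FPKM, beside 4.63% of all such transcripts, and 12 in LH vs. Ctrl with the study's exclusion. Unadjusted, this test called 3, 6, 9 and 3 gene sums where limma unadjusted called 2, 7, 11 and 6, and limma unadjusted called 8, 19, 22 and 17 shares. With only the 2 groups in the fit, 1 share passed in NLH vs. Ctrl, beside 0.102% of all shares. With the replicate number as a block, the study's test called 7, 14, 10 and 13 transcripts in the order above, beside 5.08%, 5.86%, 5.29% and 3.68% of all transcripts. The labels do not say what the numbers stand for. The 24 same-numbered pairs had a median correlation of -0.029 (-0.081 to 0.14), and other pairs -0.0025, which does not settle it. The causes of these shifts were not tested. Depth limits low genes most, and Eif4ebp1, Eif4e3 and Eif4ebp3 are at or near 0 in some libraries.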
